A study of Mus musculus with 16 samples.

Results

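The 41 genes described here act in the second gap phase of the cell cycle (G2) and in mitosis, and were taken by gene symbol from a fixed list of G2/M, spindle and cytokinesis genes. All 41 symbols were found among the 24411 genes of the deposited count table. By role they comprise 5 cyclin, Cdk1 and transcription genes (Ccna2, Ccnb1, Ccnb2, Cdk1, Foxm1), 6 genes of chromosome structure (Mki67, Top2a, Smc2, Smc4, Ncapg, Ncaph), 3 mitotic kinases (Plk1, Aurka, Aurkb), 4 genes of the spindle checkpoint (Bub1, Bub1b, Ttk, Mad2l1), 7 of the centromere, kinetochore and passenger complex (Cenpa, Cenpe, Cenpf, Ndc80, Nuf2, Birc5, Cdca8), 6 of the spindle (Kif11, Kif2c, Kif4, Tpx2, Nusap1, Hmmr), 7 of cytokinesis (Kif20a, Kif20b, Kif23, Prc1, Anln, Ect2, Racgap1) and 3 of anaphase and mitotic exit (Cdc20, Ube2c, Espl1).

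RNA was sequenced from muscle stem cells (MuSCs) sorted from mouse skeletal muscle, with 4 libraries in each of 4 groups. The groups crossed genotype with injury: control mice, which the labels call wild type, and mice with a MuSC-specific knockout of TRF2 (TRF2 MuSC-cKO, hereafter cKO) were sampled from uninjured muscle and 3 days post-injury (3 DPI) with notexin, a myotoxin of snake venom, of which 10 µl was injected into the tibialis anterior. In the cKO mice a floxed TRF2 allele was deleted by a tamoxifen-inducible Cre under Pax7, so that only Pax7-expressing cells and their progeny could lose it. Tamoxifen was given from 8 to 10 weeks of age in 7 injections of 3 mg per 20 g body weight, and the sources used here do not say which mice outside the cKO group received it. MuSCs were gated as CD45-, CD31-, CD11b- and Sca1-, and as α7-integrin+ with VCAM+ or CD34+. The submitters describe the 4 libraries of a group as biological replicates.

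MuSCs of uninjured adult muscle rest outside the cell cycle and divide after damage. Genes of G2 and mitosis are held off in resting cells by the DREAM complex, which sits on CHR elements of their promoters, and are switched on late in the cycle by B-MYB, FOXM1 and the CCAAT-binding factor NF-Y. Their products drive entry into mitosis, condense and attach chromosomes, hold back anaphase until attachment is complete, and cut the cell apart.

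Library totals ran from 620406 to 1351095 counts, and the 41 genes together held 545 to 3469 counts of a library. Between 19996 and 21879 genes had a count in 15 libraries, against 15387 in replicate 3 of the 3 DPI libraries labelled cKO, where 36 of the 41 genes had a count against 40 or 41 elsewhere. The main results that involve that library are also given without it. Terf2, which encodes TRF2, stood at 71.5, 94.2, 64.6 and 70.8 CPM (counts scaled to a common library size with TMM factors) in uninjured control libraries and at 49.6, 46, 58.4 and 27 in uninjured cKO libraries, with no overlap (log2 fold change -0.62 ± 0.27 SE, adjusted p = 0.199 by edgeR). At 3 DPI it stood at 34, 48.5, 49.5 and 44.2 CPM in control libraries and at 50.8, 20.3, 59.1 and 82.2 in those labelled cKO. These ranges overlap (log2 fold change 0.44 ± 0.42 SE, adjusted p = 0.755 by edgeR). The lower level that the label would give was thus not seen, and these libraries are called "labelled cKO" throughout. They also held 2357.6 to 7211.5 CPM of myeloid markers, whose part in the Terf2 values was not tested. Summed activated myoblast genes did not overlap between the same 3 DPI libraries, at 467.2 to 743 CPM in control and 162.6 to 283.6 CPM in those labelled cKO. Of 5 tested genes of that list 0 were called by edgeR, with 3 lower at an unadjusted p under 0.05 (3.58% of all genes). Despite the name of the list, its sum was higher in uninjured control libraries, at 905.9 to 1263.8 CPM. Counts are summed over the gene and include any exons outside the floxed part. The 12 MuSC markers, with Pax7, Vcam1 and Itga7 detected in every library, summed to 4037.4 to 6348.7 CPM in uninjured control, 2260.3 to 3133.3 in uninjured cKO, 1135.5 to 1478.4 in control 3 DPI and 527.8 to 754.4 in labelled cKO 3 DPI libraries. In bulk RNA, fewer cells of a type and less RNA per cell cannot be told apart.

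Promoter windows from 250 bases before to 50 bases after the transcription start site (RefSeq, GRCm38.p6) were found for 35 of the 41 genes; Ccna2, Foxm1, Aurkb, Smc4, Tpx2 and Kif20a had no entry. Each window was searched on both strands for the CHR core TTTGAA (complement TTCAAA) and for the CCAAT box (complement ATTGG), and matches that overlap on opposite strands were each counted, as in Ube2c. A CHR core was present in 27 of the 35 windows (77.1%), against 18.1% of the windows of 27025 genes. A CCAAT box was present in 26 (74.3% against 37.9%), and both were present in 23 (65.7% against 7.12%). Ncaph, Mad2l1, Nuf2, Birc5 and Nusap1 held neither. A match shows only that these letters are present and does not show that a factor binds there. The windows of 5 genes whose levels are given below for each library, and which hold both motifs, are shown because they let the spacing of the motifs be read directly, with the motifs in capitals and each window 5′ to 3′ on the strand of its gene.
Cdk1 (chr10:69352863-69353162, minus strand): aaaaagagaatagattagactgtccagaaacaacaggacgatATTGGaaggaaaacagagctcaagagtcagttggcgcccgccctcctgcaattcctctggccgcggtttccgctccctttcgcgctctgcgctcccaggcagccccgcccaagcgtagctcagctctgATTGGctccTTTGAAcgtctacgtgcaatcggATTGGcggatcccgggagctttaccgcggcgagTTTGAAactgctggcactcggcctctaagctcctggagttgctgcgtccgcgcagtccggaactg
Mki67 (chr7:135716330-135716629, minus strand): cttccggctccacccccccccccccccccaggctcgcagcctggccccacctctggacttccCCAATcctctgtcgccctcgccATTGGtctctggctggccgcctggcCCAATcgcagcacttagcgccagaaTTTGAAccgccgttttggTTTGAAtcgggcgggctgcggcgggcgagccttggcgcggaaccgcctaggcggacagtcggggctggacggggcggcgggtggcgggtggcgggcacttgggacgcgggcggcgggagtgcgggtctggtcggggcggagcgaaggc
Top2a (chr11:99024140-99024439, minus strand): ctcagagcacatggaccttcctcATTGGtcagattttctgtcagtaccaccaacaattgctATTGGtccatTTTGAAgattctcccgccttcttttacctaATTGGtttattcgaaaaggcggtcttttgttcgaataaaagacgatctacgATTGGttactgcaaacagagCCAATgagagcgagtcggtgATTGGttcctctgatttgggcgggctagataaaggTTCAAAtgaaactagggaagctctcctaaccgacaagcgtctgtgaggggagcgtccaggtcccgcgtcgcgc
Plk1 (chr7:122159185-122159484, plus strand): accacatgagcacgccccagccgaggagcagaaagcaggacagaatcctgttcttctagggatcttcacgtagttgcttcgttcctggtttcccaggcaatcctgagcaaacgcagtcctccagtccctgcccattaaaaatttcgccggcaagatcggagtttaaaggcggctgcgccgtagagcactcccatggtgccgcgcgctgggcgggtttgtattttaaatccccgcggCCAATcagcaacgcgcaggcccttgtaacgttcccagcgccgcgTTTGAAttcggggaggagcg
Cenpf (chr1:189688037-189688336, minus strand): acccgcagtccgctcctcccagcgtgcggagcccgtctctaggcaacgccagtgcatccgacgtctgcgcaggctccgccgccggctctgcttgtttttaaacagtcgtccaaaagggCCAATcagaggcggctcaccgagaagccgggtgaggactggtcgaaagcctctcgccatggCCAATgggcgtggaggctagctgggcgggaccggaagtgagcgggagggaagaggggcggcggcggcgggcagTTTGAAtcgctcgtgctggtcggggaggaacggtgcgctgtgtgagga

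In the Cdk1 window the CCAAT boxes began 208, 80 and 48 bases before the start site and the CHR cores 71 and 15 bases before it. Top2a held 6 CCAAT boxes, the most of these 5 windows, with CHR cores 179 and 23 bases before the start site. In Mki67 both CHR cores, 116 and 98 bases before the start site, lay downstream of its 3 CCAAT boxes. In Plk1 and Cenpf the only CHR core lay after the start site, at positions 31 and 3.

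**Figure D1:**
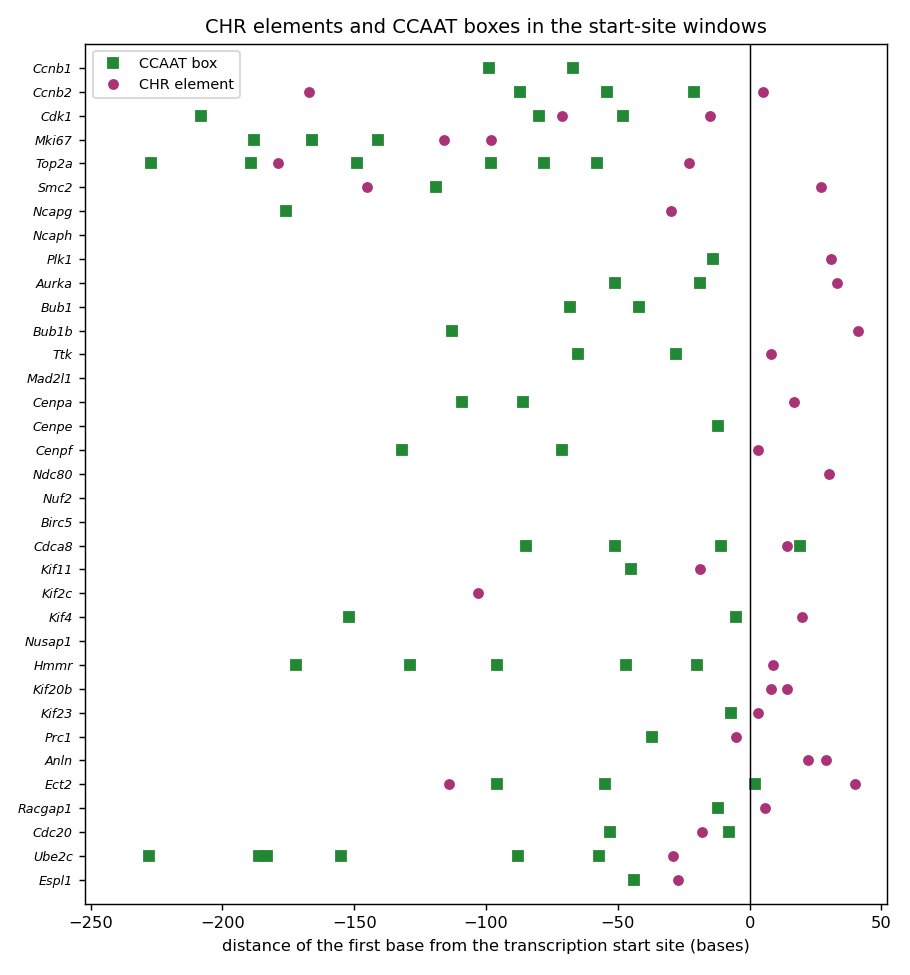
Position of CHR cores (circles) and CCAAT boxes (squares) in the promoter windows of 35 G2 and mitosis genes, as the distance in bases of the first base from the transcription start site (vertical line at 0). Both motifs were present in 23 windows, and 5 windows held neither.

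In uninjured muscle the transcripts of these genes were low but measurable. Per kilobase of the longest annotated transcript (GENCODE M21), the median of the 41 mean levels was 4.1 CPM per kilobase in uninjured control and 4.7 in uninjured cKO libraries, against 0.595 and 0.911 for 1501 smell and taste receptor genes that MuSCs are not known to use. The level of 33 of the 41 genes in control and 29 in cKO MuSCs was above the 95th percentile of those receptor genes (2.87 and 4.02 CPM per kilobase). Smc4, the ATPase core of condensin, had the highest level in uninjured control MuSCs (10.7 CPM per kilobase), followed by Mki67 (9.02), Aurkb (7.97) and Bub1b (7.66). The order of these genes is not firm, since the libraries of Smc4 alone ranged from 22.7 to 60.4 CPM before division by length. Mad2l1, Nusap1 and Hmmr were lowest, at 1.14, 1.25 and 1.28 CPM per kilobase. The place of Mad2l1 depends on its longest annotated transcript, of 7557 bases. Before division by length it averaged 8.64 CPM in uninjured control libraries, above Nusap1 (4.41) and Hmmr (4.96). At 3 DPI the median level was 14 CPM per kilobase in control and 9.18 in labelled cKO libraries, and Mki67 was highest in both (49.9 and 37).

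The first comparison asked how these genes responded to injury in control MuSCs. They rose: 33 of the 41 were called higher at 3 DPI than in uninjured muscle and 0 were called lower, by edgeR's quasi-likelihood test at a Benjamini-Hochberg adjusted p under 0.02 over all genes and a fold change over 1.5. Across all 15356 genes tested 10.8% were called higher and 9.46% lower. All 41 estimates were above 0 (53.8% of all genes), and the control libraries of the 2 states did not overlap for 31 of the 41 (12.3% of all genes). The median log2 fold change was 1.65, against 0.07 over all genes. Summed over the 41 genes, the level was 692.2, 673.8, 860.5 and 695.2 CPM in uninjured and 2123.1, 2763.1, 2411.2 and 2945.8 CPM in 3 DPI control libraries. Of the 26 genes that pass the filter on low counts in uninjured libraries 21 were called. The 15 that do not pass it there can enter this test through their injured libraries, and 12 of them were called. With no filter the count was again 33, but not of the same genes, since Mad2l1 was not called there (adjusted p = 0.0208 by edgeR). A single fit over all 16 libraries called 20, and there Ccnb2, Aurka, Aurkb, Mad2l1, Ndc80, Nuf2, Birc5, Kif4, Tpx2, Kif23, Cdc20, Ube2c and Espl1 were not called.

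Among the cyclins and Cdk1, all 5 genes rose. Ccna2, the cyclin A that works with Cdk partners from S phase to mitosis, stood at 10.7, 4.49, 7.94 and 4.72 CPM in uninjured and at 34, 76.6, 48.4 and 86.6 CPM in 3 DPI control libraries (log2 fold change 3.15 ± 0.39 SE, adjusted p = 8.6e-09). Ccnb1, the B cyclin that activates Cdk1 at mitotic entry, went from 7.15, 8.97, 17 and 2.83 CPM to 19.2, 31, 42.4 and 46.7 (1.98 ± 0.44, adjusted p = 4.4e-04). Cdk1, the mitotic kinase itself, lay within 8.93 to 9.43 CPM in all 4 uninjured control libraries and reached 26.6, 26.2, 34.3 and 48.4 at 3 DPI (1.90 ± 0.40, adjusted p = 2.4e-04). For each of these 3 genes every injured library was above every uninjured one. Foxm1, the transcription factor of the late cycle, stood at 28.6, 23.3, 24.9 and 22.6 CPM and then at 56.2, 63, 55.5 and 89.2 (1.42 ± 0.28, adjusted p = 1.1e-04). Ccnb2 rose by 2.32 ± 0.51 from the lowest starting level of the 5, a mean of 5.66 CPM.

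Among genes of chromosome structure 4 of 6 rose. Top2a, the topoisomerase that untangles sister chromatids, had the largest fold change of the 41 genes. It stood at 17.9, 8.97, 12.5 and 26.4 CPM in uninjured and at 136, 164.9, 157.4 and 203 CPM in 3 DPI control libraries (log2 fold change 3.33 ± 0.27 SE, adjusted p = 9.2e-14). Mki67, the antigen Ki-67 that coats mitotic chromosomes and marks cycling cells, went from 100.9, 120.2, 64.6 and 77.4 CPM to 390.3, 602.3, 472.3 and 543.5 (2.48 ± 0.21, adjusted p = 4.4e-13). Both genes kept their call under each of the 17 alternatives that could be run. The condensin ATPases Smc2 (1.62 ± 0.29) and Smc4 (1.30 ± 0.24) also rose, whereas the condensin I subunits Ncapg (0.82 ± 0.49, adjusted p = 0.261) and Ncaph (0.65 ± 0.41, adjusted p = 0.28) did not pass. Ncaph stood at 15.2, 7.18, 26.1 and 18.9 CPM in uninjured and 31, 32, 19.2 and 22.9 CPM in injured control libraries, and these ranges overlap.

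All 3 mitotic kinases were called higher. Plk1, which acts from mitotic entry to cytokinesis, stood at 12.5, 19.7, 5.67 and 5.66 CPM in uninjured and at 19.2, 47.5, 48.4 and 63.7 CPM in 3 DPI control libraries (log2 fold change 2.03 ± 0.40 SE, adjusted p = 8.6e-05), and only its lowest injured library lay below its highest uninjured one. Aurka, the Aurora kinase of the spindle poles, rose by 2.21 ± 0.53 (adjusted p = 0.00139). Aurkb, the Aurora kinase of the passenger complex, stood at 12.5, 8.08, 28.3 and 13.2 CPM and then at 23.7, 44.6, 25.2 and 47.6 (1.22 ± 0.39, adjusted p = 0.0181). Its ranges overlap and its call was lost when any of 5 libraries was left out, uninjured replicate 1, 2 or 4 or injured replicate 2 or 4 (adjusted p 0.0561 to 0.0925). The call was also lost by limma (0.0486), by DESeq2 (0.0278), with the replicate block (0.0264) and in the scaled count table (0.0939). In edgeR it was lost with median-of-ratios scaling (0.022). Plk1 was not called by limma (0.0227), nor Aurka in the scaled count table (0.0744).

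Of the spindle checkpoint genes, Bub1b and Mad2l1 were called higher. Bub1b, which encodes the checkpoint protein BubR1, stood at 33.9, 35, 22.7 and 20.8 CPM in uninjured and at 66.5, 88.3, 79.7 and 74.7 CPM in 3 DPI control libraries (log2 fold change 1.47 ± 0.27 SE, adjusted p = 2.9e-05). Bub1, a kinase of the kinetochore, went from 10.7, 10.8, 13.6 and 9.43 CPM to 14.8, 34.9, 19.2 and 20.4. Every injured library of Bub1 was higher than every uninjured one, but the gene was not called by edgeR (1.02 ± 0.44, adjusted p = 0.0904), whereas limma called it (0.00853). Mad2l1, which encodes the checkpoint effector Mad2, rose by 1.48 ± 0.49 (adjusted p = 0.0199). Its call was lost without uninjured replicate 1, 2 or 3 or injured replicate 2, 3 or 4 (adjusted p 0.0415 to 0.0963). The call was also lost by DESeq2 (0.0267), with the replicate block (0.0242) and in the scaled count table (0.0792). In edgeR it was lost with no filter (0.0208) and with median-of-ratios scaling (0.0249). The kinase gene Ttk did not pass (0.83 ± 0.56, adjusted p = 0.327).

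At the centromere and kinetochore 5 of 7 genes rose. Cenpe, a kinetochore motor that moves chromosomes to the spindle equator, stood at 32.2, 36.8, 46.5 and 31.1 CPM in uninjured and at 78.4, 87.3, 118.1 and 152.9 CPM in 3 DPI control libraries (log2 fold change 1.59 ± 0.25 SE, adjusted p = 2.1e-06). Cenpf, a large kinetochore protein that accumulates in G2, went from 43.8, 39.5, 72.6 and 42.5 CPM to 140.5, 131.9, 140.3 and 126.5 (1.46 ± 0.23, adjusted p = 2.2e-06). The injured libraries of Cenpf lay close together, and its uninjured replicate 3 stood apart from the others. Ndc80 (2.34 ± 0.43) and Nuf2 (2.18 ± 0.50), which together form the microtubule-binding rod of the kinetochore, rose, as did Birc5, or survivin (1.65 ± 0.44, adjusted p = 0.00314, and 0.0232 without uninjured replicate 4). Cenpa, the histone H3 variant of centromeres, missed the threshold (1.58 ± 0.53, adjusted p = 0.0218), and the passenger subunit gene Cdca8 did not pass (1.06 ± 0.47, adjusted p = 0.105).

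All 6 spindle genes rose and none had overlapping libraries. Kif11, the motor that pushes the spindle poles apart, stood at 13.4, 8.08, 28.3 and 29.2 CPM in uninjured and at 62.1, 53.3, 54.5 and 62.8 CPM in 3 DPI control libraries (log2 fold change 1.57 ± 0.34 SE, adjusted p = 2.7e-04, but 0.0262 in the scaled count table). Tpx2, an activator of Aurora A, went from 28.6, 20.6, 40.8 and 22.6 CPM to 69.5, 91.2, 66.6 and 124.8 (1.67 ± 0.28, adjusted p = 6.1e-06). The fold changes of Hmmr (2.91 ± 0.47) and Nusap1 (2.54 ± 0.51), which encode microtubule-binding proteins, were the largest of the group. Both started low: Nusap1 stood at 2.68, 2.69, 5.67 and 6.6 CPM in uninjured and 14.8, 27.2, 31.3 and 28.9 CPM in injured control libraries. The microtubule depolymerase gene Kif2c rose by 1.86 ± 0.39 and the chromosome motor gene Kif4 by 1.65 ± 0.34.

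Of the cytokinesis genes 5 of 7 rose. Anln, or anillin, a scaffold of the contractile ring, stood at 22.3, 3.59, 24.9 and 15.1 CPM in uninjured and at 50.3, 85.3, 50.5 and 96 CPM in 3 DPI control libraries (log2 fold change 2.12 ± 0.36 SE, adjusted p = 1.2e-05). Kif20a, a motor of the central spindle, went from 25, 17.9, 28.3 and 9.43 CPM to 66.5, 70.8, 54.5 and 64.5 (1.68 ± 0.31, adjusted p = 4.0e-05). The libraries of both genes separated fully by injury. Prc1, which bundles central spindle microtubules, rose by 2.23 ± 0.38, and Kif23 and Racgap1, the partners in the centralspindlin complex, by 1.34 ± 0.35 and 1.99 ± 0.36; the call of Kif23 was lost without uninjured replicate 2 or injured replicate 2 (adjusted p 0.0276 and 0.0373), by limma (0.0299) and in the scaled count table (0.0585). Ect2, which activates RhoA at the division plane, did not overlap between states and missed the threshold (1.20 ± 0.40, adjusted p = 0.0242). Kif20b, another kinesin, stood at 17.9, 28.7, 22.7 and 33 CPM and then at 51.7, 26.2, 47.4 and 52.6, with overlap, and was not called by edgeR (0.80 ± 0.32, adjusted p = 0.0668) but was by limma (0.0141).

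The 3 genes of anaphase and mitotic exit rose. Espl1, or separase, the protease that releases sister chromatids, stood at 16.1, 21.5, 40.8 and 13.2 CPM in uninjured and at 59.1, 70.8, 75.7 and 46.7 CPM in 3 DPI control libraries (log2 fold change 1.48 ± 0.32 SE, adjusted p = 3.6e-04, but 0.0538 in the scaled count table). Cdc20, which activates the anaphase-promoting complex, went from 7.15, 21.5, 12.5 and 8.49 CPM to 22.2, 57.2, 19.2 and 45 (1.55 ± 0.41, adjusted p = 0.00366). Its lowest injured library lay below its highest uninjured one, and the call was lost without uninjured replicate 1 or 4 or injured replicate 2 or 4 (adjusted p 0.0205 to 0.0606), by limma (0.0646) and in the scaled count table (0.048). Ube2c, the ubiquitin-conjugating enzyme of that complex, rose by 2.40 ± 0.60 (adjusted p = 0.00193, 0.0206 or 0.0312 without injured replicate 2 or 4, and 0.0334 by limma).

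**Figure D2:**
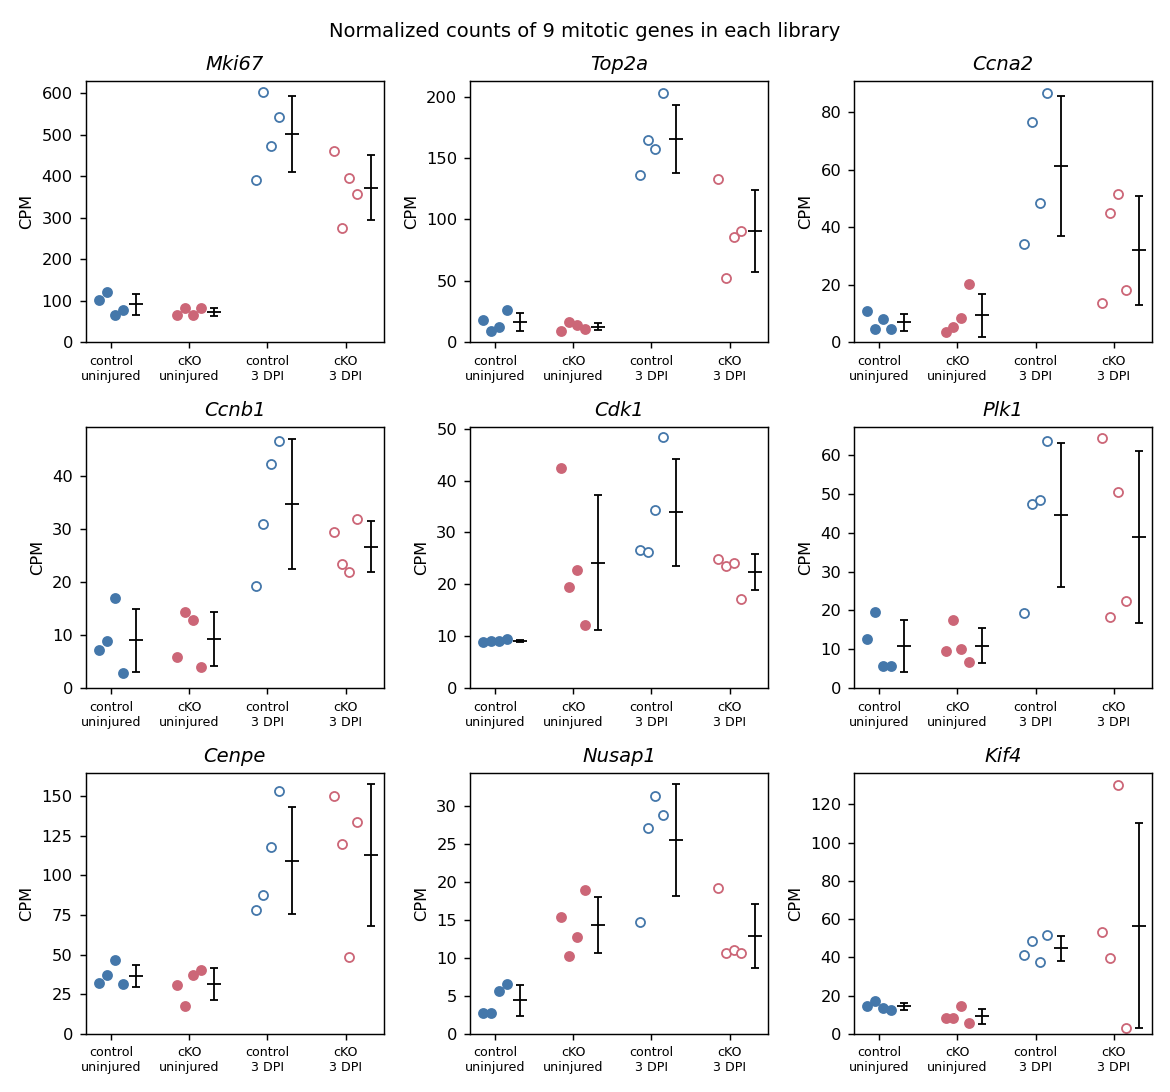
Normalized counts (CPM, linear axes from 0) of 9 G2 and mitosis genes in each of the 16 libraries, in uninjured muscle (filled) and at 3 DPI (open), with horizontal marks and bars for the mean ± SD of 4 libraries. Top2a and Mki67 separate fully by injury in both genotypes, whereas Cdk1 and Nusap1 of uninjured cKO libraries lie above those of uninjured control libraries, and 1 of the 3 DPI libraries labelled cKO holds 130.3 CPM of Kif4.

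Other genes of the cell cycle also rose. Of 60 tested genes from a longer list of G2/M genes 23 were called higher in control MuSCs after injury and 0 lower (median 1.00), with the smallest adjusted p for Ncapd2 (9.7e-07 by edgeR) and Kpna2 (5.5e-05). Of 41 tested genes of DNA replication, which precedes G2, 21 were called higher and 0 lower (median 1.17), among them Uhrf1 (2.33) and Mcm3 (1.99). The subunits of the anaphase-promoting complex, whose transcripts are not restricted to cycling cells, gave 2 called higher and 1 lower of 17 (median -0.06). Among 16 genes of the DREAM, B-MYB and NF-Y regulators 0 were called higher and 1 lower (3 and 1 at an unadjusted p under 0.05). The differences between these lists were not tested.

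Marker genes of other cells moved with injury in the same libraries. All 16 tested of 19 myeloid markers rose in control MuSCs, and their summed level went from 122.4 to 185.9 CPM in uninjured to 6026.4 to 8272 CPM in 3 DPI control libraries. Ptprc and Itgam, which encode the CD45 and CD11b used to gate cells out, averaged 13.2 and 15.2 CPM in uninjured and 227.4 and 395.4 CPM in injured control libraries. No myeloid marker was at 0 in every control library of a state. Over the same libraries 11 of the 12 MuSC markers fell and 1 rose. Of 12 fibroadipogenic markers 6 rose, Col1a1 (2.05) among them, and 3 fell, Dpt (-2.17) among them. Pericyte and smooth muscle markers went from a summed 2782.7 to 960 CPM on average, with 3 of 8 called lower, Notch3 (-2.75) among them. Of 11 endothelial markers Vwf rose (1.46) and Tek fell (-0.75). The part of RNA from these cells in the rise of the 41 genes was not tested. In injured control replicates 1 to 4 the myeloid sums were 6026.4, 8018.9, 8272 and 7845.5 CPM, beside sums over the 41 genes of 2123.1, 2763.1, 2411.2 and 2945.8 CPM.

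The sample descriptions carry codes whose meaning is not given. The code JH140 held 1 uninjured and 2 injured control libraries, and within it the sum over the 41 genes was 695.2 CPM against 2411.2 and 2945.8 CPM. The other uninjured control libraries carried the code JH135 and the other injured ones JH133, so that these codes and injury cannot be told apart.

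The response to injury was also set beside the promoter motifs, as a description. The 23 genes with both motifs had a median log2 fold change of 1.62 after injury in control MuSCs, with 18 called, and the 12 with a window that did not hold both had 1.75, with 9 called. The 6 without a window, all of which were called, had 1.54.

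The second comparison asked the same of uninjured cKO MuSCs and the 3 DPI libraries labelled cKO. Here 3 of the 36 genes tested were called higher at 3 DPI and 0 lower by edgeR, namely Mki67, Top2a and Cenpe, and 14 had an unadjusted p under 0.05, all above 0 (8.66% of all genes in that direction and 7.72% in the other). Of all 14578 genes tested 2.43% were called higher and 1.61% lower. The 3 genes were among the 33 called in control MuSCs, and limma and DESeq2 each called 4. The median log2 fold change of the 36 was 1.01 (0.01 over all genes, and 1.17 for the members tested without labelled cKO replicate 3), 33 estimates were above 0 (50.4% of all genes), and the injured libraries all lay above the uninjured ones for 7 (5.82% of all genes, with 8.29% the other way). Cenpa, Mad2l1, Ube2c, Ncapg and Ndc80 did not pass the filter on low counts. Without labelled cKO replicate 3 at 3 DPI, which has the fewest genes with a count, 6 were called, Cenpf (adjusted p = 0.00143) and Tpx2 (0.00292) among them. Summed over the 41 genes, the level was 797.5, 643.4, 920.8 and 734.8 CPM in uninjured cKO libraries and 2431.7, 1652.1, 1579.1 and 1844.4 CPM in the injured libraries labelled cKO, with no overlap. Within the code JH139 it was 734.8 against 1579.1 and 1844.4 CPM; the other uninjured cKO libraries carried the code JH134 and the other injured ones JH133.

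Mki67 stood at 65, 81.7, 65.6 and 82.2 CPM in uninjured cKO libraries and at 460.6, 275, 396.4 and 357.8 in injured libraries labelled cKO (log2 fold change 2.37 ± 0.25 SE, adjusted p = 4.7e-05). Top2a stood at 9.45, 16.3, 14.3 and 10.8 CPM and then at 133.2, 52.4, 85.4 and 90.8 (2.84 ± 0.42, adjusted p = 6.5e-04). Cenpe stood at 30.7, 17.4, 37.1 and 40.4 CPM and then at 150.1, 119.8, 48.2 and 133.5 (1.87 ± 0.40, adjusted p = 0.0108). Each of these genes separated fully by injury. The call of Cenpe was lost when any library but injured replicate 3 was left out (adjusted p 0.0325 to 0.0532), and on all 8 libraries with the replicate block (0.0562) and in the scaled count table (0.124).

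Several genes that rose in control MuSCs had estimates near 0 here. Cdk1 stood at 42.5, 19.4, 22.8 and 12.1 CPM in uninjured cKO libraries and at 24.8, 23.5, 24.1 and 17.1 in the injured libraries labelled cKO (log2 fold change -0.08 ± 0.54 SE, adjusted p = 0.975), with an interval from -1.24 to 1.09. Nusap1 stood at 15.4, 10.2, 12.8 and 18.9 CPM and then at 19.2, 10.7, 11 and 10.7 (-0.12 ± 0.65, 95% interval -1.51 to 1.27). Kif2c stood at 40.2, 16.3, 29.9 and 22.9 CPM and then at 9.03, 24.6, 40.5 and 29.9 (-0.01 ± 0.56). The injured and uninjured libraries overlapped for these 3 genes. Kif4 had the largest estimate that was not called (2.71 ± 0.81, adjusted p = 0.0696), and its injured libraries were spread over 53.1, 39.6, 130.3 and 3.2 CPM. Without injured replicate 3 it was 1.84 (adjusted p = 0.0674), without injured replicate 4 it was 3.13 and called (adjusted p = 0.00873), and limma (adjusted p = 0.00852) and DESeq2 (0.0105) called it on all 8 libraries.

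The remaining named genes showed wider intervals than in control MuSCs. Plk1 stood at 9.45, 17.4, 9.98 and 6.74 CPM in uninjured cKO libraries and at 64.3, 18.2, 50.4 and 22.4 in the injured libraries labelled cKO (log2 fold change 1.84 ± 0.59 SE, adjusted p = 0.0993). Ccnb1 stood at 5.91, 14.3, 12.8 and 4.04 CPM and then at 29.4, 23.5, 21.9 and 32 (1.54 ± 0.62, adjusted p = 0.208). For both genes every injured library was the higher, yet neither was called. Ccna2 (1.85 ± 0.71), Bub1b (0.83 ± 0.46), Kif11 (1.12 ± 0.49), Anln (0.85 ± 0.43) and Espl1 (0.72 ± 0.50) had estimates above 0 that did not pass. Without labelled cKO replicate 3 Plk1 was 1.67 (adjusted p = 0.0472 by edgeR) and Bub1b 1.15 (0.027), and neither was called.

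In the same injured libraries labelled cKO, the myeloid markers summed to 2357.6 to 7211.5 CPM, against 193.8 to 228.1 CPM in uninjured cKO libraries, and 14 of the 16 tested rose. S100a9 was at 0 in all 4 of these injured libraries and no other of the 19 markers was. In replicates 1 to 4 the myeloid sums were 7211.5, 5339.3, 2357.6 and 4988.6 CPM, beside sums over the 41 genes of 2431.7, 1652.1, 1579.1 and 1844.4 CPM. The part of the myeloid RNA in these values was not tested. Of the 12 MuSC markers 7 fell. Of 11 tested fibroadipogenic markers 1 was called higher, Col1a1 (1.72), and 0 lower. Of 8 pericyte and smooth muscle markers 1 was called lower, Notch3 (-2.85), as was Ncam1 (-1.72) of the neural list. The part of these cells in the values of the 41 genes was not tested either. Of the longer list of G2/M genes 0 of 53 tested were called by edgeR (7 higher and 2 lower at an unadjusted p under 0.05), and of the DNA replication genes 0 of 34 (7 higher and 0 lower).

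**Figure D3:**
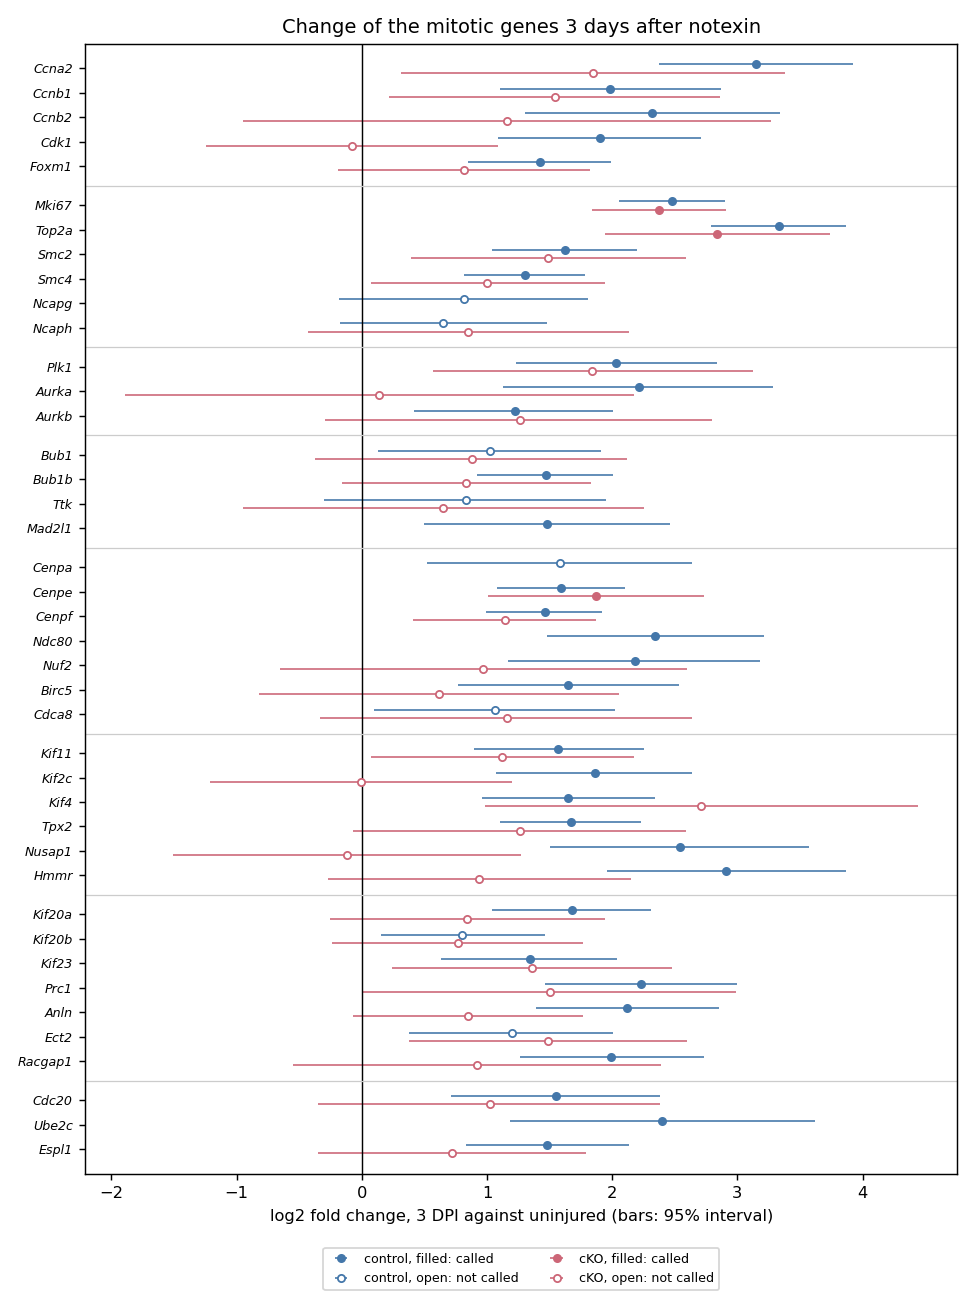
Log2 fold change from uninjured muscle to 3 DPI of the 41 G2 and mitosis genes, in control libraries and in libraries labelled cKO, with 95% intervals as bars and filled points for called genes. In control libraries 33 of 41 genes were called higher, against uninjured cKO the libraries labelled cKO gave 3 of the 36 tested, with wider intervals; a gene with no second point did not pass the filter.

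Whether the response to injury differed between genotypes was tested with the interaction term over all 16 libraries. By edgeR, 0 of the 41 genes were called, in either direction, and 4 had an unadjusted p under 0.05, all with a smaller response in the libraries labelled cKO: Nusap1 (difference of log2 fold changes -2.53 ± 0.78 SE, adjusted p = 0.57), Cdk1 (-1.86 ± 0.64, adjusted p = 0.638), Hmmr (-1.86 ± 0.75, adjusted p = 0.757) and Kif2c (-1.74 ± 0.71, adjusted p = 0.757). Nusap1 averaged 4.41 CPM in uninjured control and 25.5 in 3 DPI control, then 14.3 in uninjured cKO and 12.9 in 3 DPI labelled cKO libraries. In that order Cdk1 averaged 9.1, 33.9, 24.2 and 22.4 CPM, Hmmr 4.96, 37.1, 14.5 and 27.4, and Kif2c 12.6, 44.8, 27.3 and 26. For these 4 genes the uninjured cKO means were thus above the uninjured control means. Without labelled cKO replicate 3 the estimates of Nusap1, Cdk1, Hmmr and Kif2c were -2.60, -2.05, -1.90 and -2.20, and none was called by edgeR (adjusted p 0.223 to 0.453). On all 16 libraries limma called 1 of the 41, Cdk1, and DESeq2 0. Across all 16822 genes 0.0178% were called lower, while 2.17% were lower and 3.57% higher at an unadjusted p under 0.05. For 32 of the 41 the estimate was below 0 and for 9 above it (48.4% and 51.6% of all genes), with a median of -0.41 (0.03 over all genes) and of -0.39 without labelled cKO replicate 3. In the same test 14 of 16 myeloid markers had estimates below 0 (median -0.93), with 0 called by edgeR and 6 lower at an unadjusted p under 0.05, as did 35 of 41 DNA replication genes (median -0.52), with 0 called and 7 lower. The part of the myeloid RNA in the members' estimates was not tested. The other extreme estimates were those of Aurka (-1.95 ± 1.15) at the low end and Kif4 (1.15 ± 0.84) and Ncapg (0.85 ± 0.92) at the high end, which were 0.17 and 0.50 without labelled cKO replicate 3. In the order uninjured control, 3 DPI control, uninjured cKO and 3 DPI labelled cKO, Aurka averaged 6.74, 30.7, 13 and 14.5 CPM and Ncapg 13.4, 23.2, 6.62 and 18.9 CPM, and 1 library of Aurka in the first and 1 in the last group was at 0. The interval of Mki67 ran from -1.04 to 1.04 around an estimate of 0.00, and that of Top2a from -1.41 to 0.65. The smaller number of calls in the comparison with the libraries labelled cKO is thus not shown to be a difference between genotypes for any single gene by this test.

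The third comparison set cKO against control MuSCs in uninjured muscle, where the cells rest. By edgeR, 0 of the 26 genes tested were called, and 2 had an unadjusted p under 0.05, both higher in cKO (8.98% of all genes). Of all 14048 genes tested 0.584% were called higher and 2.63% lower. For 18 of the 26 the estimate was above 0 (54.0% of all genes), and the median was 0.15 (0.06 over all genes), which ran from 0 without cKO replicate 3 to 0.35 without cKO replicate 2. The 7 cytokinesis genes, from Prc1 at 0.14 to Anln at 0.80, were all above 0, and the 5 tested genes of chromosome structure all below it. The other 15 (Ccna2, Ccnb1, Ccnb2, Ncapg, Plk1, Aurka, Aurkb, Ttk, Mad2l1, Cenpa, Ndc80, Nuf2, Nusap1, Hmmr and Ube2c) had too few counts to enter the test. DESeq2 called 0 and limma 1.

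That gene was Cdk1, with 8.93, 8.97, 9.07 and 9.43 CPM in control and 42.5, 19.4, 22.8 and 12.1 CPM in cKO libraries. All cKO libraries were above all control libraries, which held for 3.57% of all genes, and the reverse for 8.84% (log2 fold change 1.52 ± 0.50 SE, adjusted p = 0.0672 by edgeR and 0.0141 by limma). Kif2c stood at 10.7, 3.59, 18.1 and 17.9 CPM in control and 40.2, 16.3, 29.9 and 22.9 CPM in cKO libraries (1.23 ± 0.48, adjusted p = 0.132), and these ranges overlap slightly. Mki67 (-0.19 ± 0.24, 95% interval -0.67 to 0.30) and Cenpf (0.02 ± 0.30, interval -0.58 to 0.63) had the narrowest intervals of the 26 genes, and Kif4 (-0.55 ± 0.57) and Smc2 (-0.32 ± 0.43) the lowest estimates. Kif4 stood at 14.3, 17, 13.6 and 12.3 CPM in control and 8.27, 8.17, 14.3 and 5.39 CPM in cKO libraries, and Smc2 at 25.9, 23.3, 32.9 and 14.2 against 14.2, 19.4, 24.2 and 13.5 CPM, with overlap for both. Nusap1 and Hmmr did not pass the filter on low counts, and neither with no filter nor in the single fit over 16 libraries, which tested all 41 genes, was any of the 41 called by edgeR. They averaged 4.41 and 4.96 CPM in control and 14.3 and 14.5 CPM in cKO libraries. For both of these every cKO library was above every control library, at 10.2 CPM or more against 6.6 or less for Nusap1, and at 9.44 CPM or more against 9.07 or less for Hmmr. In whole counts these are few, 3 to 7 against 9 to 14 for Nusap1, and 1 to 8 against 7 to 16 for Hmmr. These 2 genes were singled out after their values were seen.

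Other marker genes differed in the same uninjured libraries. Of the 12 MuSC markers 10 were called lower in cKO (median log2 fold change -1.01), and the activated myoblast genes Myog (-2.04) and Myod1 (-1.14) were lower too. Fibroadipogenic markers summed to 6035.2 to 9082.5 CPM in control and 2018 to 3366.9 CPM in cKO libraries, with 3 of 9 tested called lower, Col3a1 (-2.12) and Dpt (-1.65) among them, and 1 higher, while 6 of the 9 estimates were above 0 and the median was 0.64. The pericyte markers Rgs5 (1.33) and Cspg4 (0.88) were called higher and the neural list's Ncam1 (-0.78) lower. Of 8 tested myeloid markers 0 were called by edgeR, with 7 estimates above 0 and 1 at an unadjusted p under 0.05, and of 10 endothelial markers 0. The myeloid sums did not overlap, at 122.4 to 185.9 CPM in control and 193.8 to 228.1 CPM in cKO libraries. The part of these cells in the values of Cdk1 and Kif2c was not tested. Uninjured control libraries carried the codes JH135 and JH140 and cKO libraries JH134 and JH139, so that code and genotype cannot be told apart. Of 45 tested genes of the longer G2/M list 0 were called by edgeR (8 higher at an unadjusted p under 0.05), and of 31 DNA replication genes 0 (5 higher).

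The fourth comparison set labelled cKO against control MuSCs at 3 DPI. By edgeR, 0 of the 41 genes were called, as were 0 of all 14559 genes tested (0%), and 1 had an unadjusted p under 0.05, in the lower direction (3.58% of all genes, with 5.78% higher). Limma and DESeq2 also called 0 of the 41. The estimates were below 0 for 33 of the 41 and above 0 for 8 (49.9% and 50.1% of all genes), with a median of -0.41 (0.00 over all genes), which was -0.29 without labelled cKO replicate 3 and ran from -0.45 without control replicate 3 to -0.27 without labelled cKO replicate 2. Top2a was the gene with an unadjusted p under 0.05, at 136, 164.9, 157.4 and 203 CPM in control and 133.2, 52.4, 85.4 and 90.8 CPM in libraries labelled cKO, with every control library the higher (log2 fold change -0.71 ± 0.28 SE, adjusted p = 0.511 by edgeR, and -0.73 without replicate 3). Cdk1 (-0.42 ± 0.43) and Ndc80 (-1.80 ± 0.85) also did not overlap and were lower in the libraries labelled cKO, whereas Ect2 did not overlap and was higher (0.71 ± 0.36); over all genes the libraries did not overlap for 6.48% in the lower and 2.17% in the higher direction.

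The largest estimates at 3 DPI came from genes with few counts. Ndc80 stood at 26.6, 36.9, 37.3 and 34 CPM in control and at 22.6, 1.07, 0 and 11.7 CPM in libraries labelled cKO, and Cenpa at 13.3, 28.1, 19.2 and 30.6 against 21.4, 5.35, 0 and 4.27 CPM (-1.43 ± 0.85). Both were at 0 in replicate 3, the library with the fewest genes with a count, without which the estimates were -1.41 for Ndc80 and -1.04 for Cenpa, and -2.78 and -2.62 without replicate 1; neither was called under any alternative run. Ect2 stood at 32.5, 33, 33.3 and 30.6 CPM in control and 48.5, 36.4, 61.3 and 41.7 CPM in libraries labelled cKO (0.50 without replicate 3). Kif4 had the next highest estimate (0.54 ± 0.68), which was -0.38 without replicate 3. Mki67 had an interval from -0.75 to 0.22 around -0.26 and Cenpf from -0.86 to 0.33 around -0.26.

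Code JH133 held 2 libraries of each genotype at 3 DPI, and within it the median difference of the 41 genes was -0.31 on the log2 scale, with 28 below 0. Among the libraries with the other codes, JH140 for control and JH139 for labelled cKO, it was -0.80, with 36 below 0. In that second set the code and the genotype cannot be told apart. Myeloid markers were also lower, with 15 of 16 tested estimates below 0 and a median of -0.45, and the 12 MuSC markers all had estimates below 0 with a median of -0.66, none of them called. Their part in the lower estimates of the 41 genes was not tested. Of 57 tested genes of the longer G2/M list 29 estimates were above 0 and 28 below (median 0), with 0 called by edgeR. Of 39 DNA replication genes 11 were above 0 and 28 below (median -0.27), with 0 called. The differences between these lists and the 41 genes were not tested. This comparison shares its control libraries with the injury comparison of control MuSCs, so the values of each are not independent of the other.

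**Figure D4:**
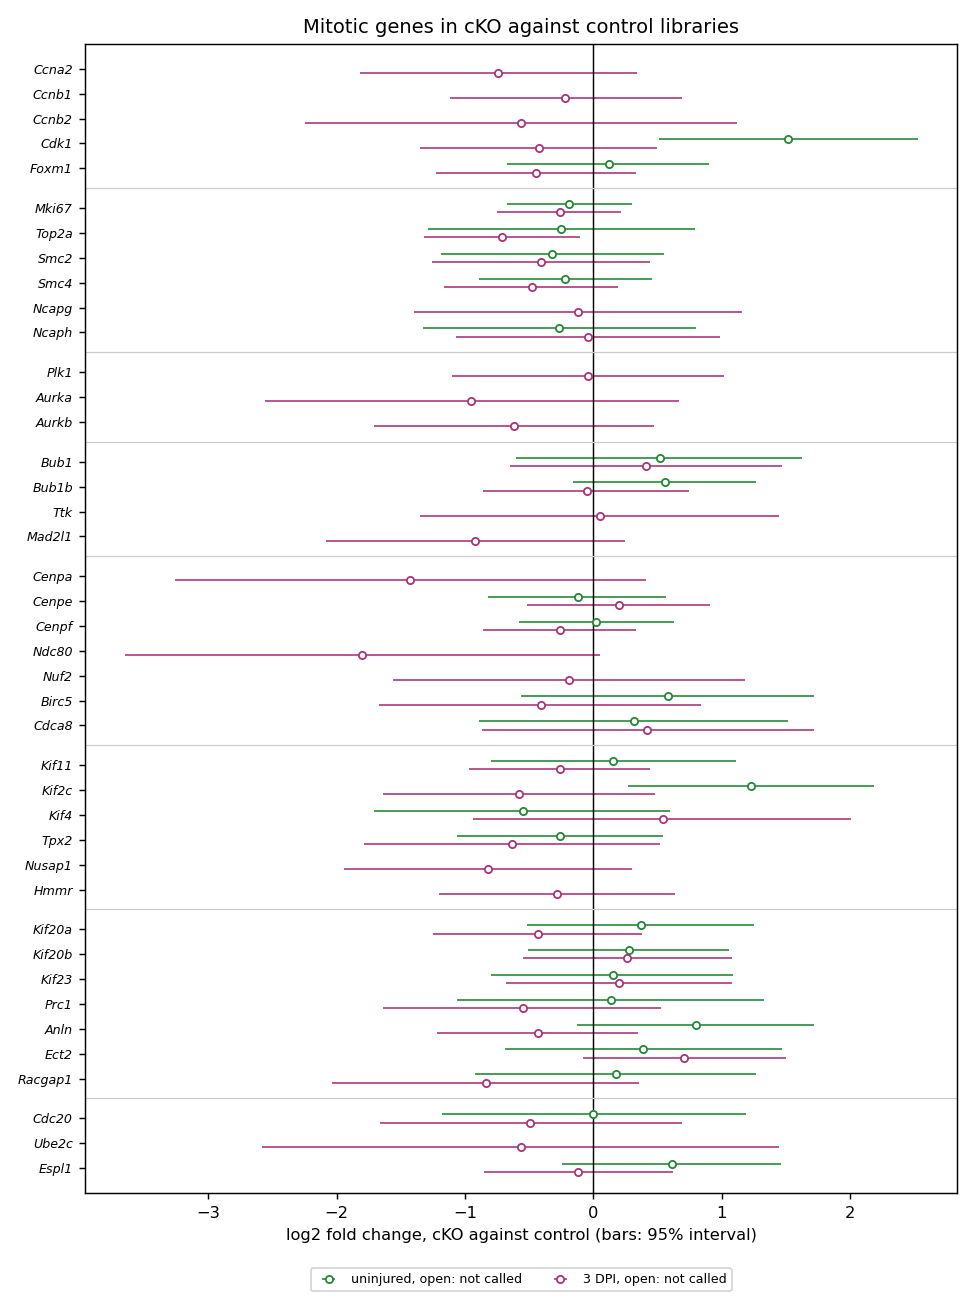
Log2 fold change of labelled cKO against control libraries for the 26 genes tested in uninjured muscle and the 41 tested at 3 DPI, with 95% intervals as bars. No point is filled because none was called; 33 of the 41 estimates at 3 DPI lie below 0.

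**Figure D5:**
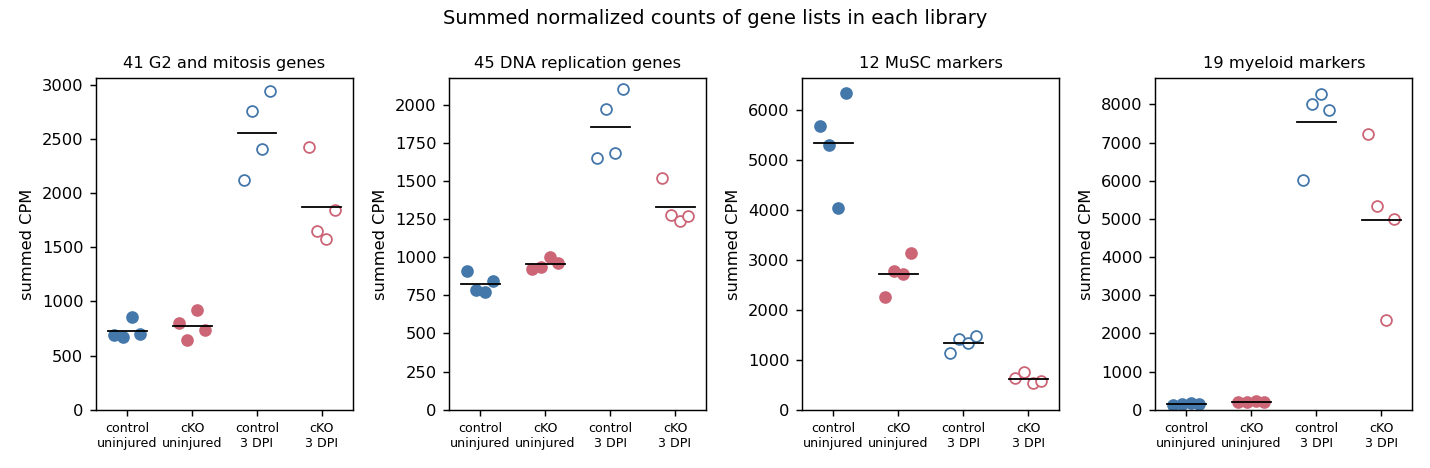
Summed normalized counts (CPM, linear axes from 0) of the 41 G2 and mitosis genes, 45 DNA replication genes, 12 MuSC markers and 19 myeloid markers in each of the 16 libraries, with a line at the mean of each group. The sums over the 41 genes and over the myeloid markers are higher in every 3 DPI library than in any uninjured library, and the sum over MuSC markers is lower.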

How the data were processed

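The authors deposited estimated counts per gene, made by Salmon from reads trimmed and aligned to GRCm38; the submitters' processing notes name Trim Galore 0.6.7, STAR 2.6.1d and Salmon 1.5.2. The library kit adds unique molecular identifiers and keeps strand; the annotation release and whether the identifiers were used in counting are not given in the sources used here. A second deposited table of scaled estimated counts served as an alternative.

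Counts were rounded to whole numbers and fitted with edgeR 4.0.16 in R 4.3.3 (robust quasi-likelihood test, filterByExpr, TMM), each comparison on its own 8 libraries and the interaction on all 16. P-values were adjusted over all genes by Benjamini-Hochberg, and calls needed both an adjusted p under 0.02 and a fold change over 1.5. Errors are standard errors of the log2 fold change unless marked SD, and intervals are 95%. Alternatives used limma 3.58.1 and DESeq2 1.42.0, other scalings and filters, a replicate block and leaving out each library. The code was tested on simulated data. The 4 libraries of a group were not duplicates of each other (chi-square over degrees of freedom 2.97 or more). Totals of 620406 to 1351095 counts leave many of the 41 genes under 20 counts in an uninjured library, which limits precision.

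The 41 genes and all lists were chosen with earlier results of these data known. For each role, values per library are given for the 2 genes of highest mean count, in addition for Mki67, Cdk1, Ccnb1, Plk1 and Top2a, and in each comparison for the 2 largest rises and falls (group means for Aurka and Ncapg); others named are called, not called or not tested.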

Additional observations from a re-analysis of the deposited data

Results flagged for a closer look

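In 3 of 76 groups of 4 libraries, 1 library lay far from the other 3 by Dixon's test, where chance gives about 1 in 20. Cenpf stood at 72.6 CPM in uninjured control replicate 3, with the next library at 43.8 CPM. In the same library the sum over the 41 genes was 860.5 CPM, with the next at 695.2 CPM. Cdk1 stood at 17.1 CPM in 3 DPI replicate 4 labelled cKO, with the nearest library at 23.5 CPM. The 76 groups covered only part of the 41 genes, and their sum. Genes outside these groups were not checked, and some of them also had 1 library apart. Among them were Nusap1, Ccnb2, Smc4 (uninjured cKO), Racgap1 (3 DPI control) and Ncaph (3 DPI labelled cKO). Nusap1 stood at 19.2, 10.7, 11 and 10.7 CPM in 3 DPI libraries labelled cKO, and Ccnb2 at 3.57, 3.59, 2.27 and 13.2 CPM in uninjured control libraries.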

How the results depend on the processing

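In control MuSCs the number of the 41 genes called higher after injury was 31 by limma and by DESeq2, 33 with no filter on low counts, 35 with library size alone and 26 in the scaled count table. It was 14 when every library needed at least 10 counts, where only 14 of the genes could be tested and all passed. A single fit over the 16 libraries gave 20; its cause was not tested. Leaving out 1 library gave 28 to 33. For injury in the libraries labelled cKO that single fit gave 6 calls, and there were 2 to 6 when 1 library was left out. Limma called 1 gene higher in uninjured cKO and 1 lower in the interaction, Cdk1 in both, where edgeR called 0. Library size alone moved the median of all genes from 0.07 to 0.23 for injury in control and from 0.06 to 0.24 for genotype in uninjured MuSCs, and the members' medians to 1.80 (41 tested) and 0.35 (26 tested).

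Replicate numbers did not pair the samples, with correlations of same-numbered libraries from -0.11 to 0.12. With a replicate block 32 genes were called after injury in control libraries and 2 in those labelled cKO, and 0 in the other comparisons. With the description code as a covariate 0 were called at 3 DPI (median -0.42).

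Of 81 results for single genes 53 kept their call and direction under every alternative run, and 5 changed direction. Estimates of Top2a in uninjured MuSCs ran from -0.48 to 0.04 with 1 library left out. Kif4 at 3 DPI was -0.07 with the replicate block and -0.38 to 0.90 with 1 library left out. After injury in the libraries labelled cKO, Cdk1 was 0.12 by limma, 0.03 with library size alone, 0.05 with the replicate block and -0.31 to 0.33 with 1 library left out, and Nusap1 -0.35 to 0.02. The interaction of Mki67 was 0.01 with the replicate block and in the scaled table, and -0.17 to 0.14 with 1 library left out. Genes with under 10 counts in uninjured libraries rest on few reads, and the effect of depth on them was not tested.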
